A study of Mus musculus with 35 samples.

Results

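The 10 genes described here belong to the major histocompatibility complex (MHC) class I presentation pathway and were measured in microglia sorted from 3 brain regions of the mouse. They were chosen by name for their role in the pathway, with earlier results of these data known. All 10 are among the 21236 genes of the counts table. RNA was sequenced from cells of 12 adult mice, 6 male and 6 female, in 35 samples that fall into midbrain (n = 12), striatum (n = 12) and prefrontal cortex (PFC, n = 11, of which 5 are male). Every mouse, in every group, carried both Tmem119-2A-CreERT2 and the reporter Ai14(RCL-tdTomato)-D, 1 copy of each per the study's methods, and was given tamoxifen, so no group is untreated and none has another genotype. In such mice tamoxifen switches on the red protein tdTomato in cells that use the Tmem119 promoter, a promoter of microglia in the brain, and only the red cells were sorted. A microglial cell that did not express Tmem119-driven Cre when tamoxifen was given would therefore not be in these samples.

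MHC class I molecules show fragments of a cell's own proteins at its surface, where CD8 T cells and natural killer cells read them. The proteasome and its interferon-induced form, the immunoproteasome, cut the fragments, the transporter TAP moves them into the endoplasmic reticulum, and tapasin helps to load them onto a heavy chain that is paired with the light chain beta-2 microglobulin. Microglia are the resident macrophages of the brain, and they increase class I transcripts in response to interferons.

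The 10 genes are given here by role. B2m encodes the light chain. H2-K1 and H2-D1 encode the classical heavy chains, H2-Q6 a heavy chain of the non-classical Qa-2 family, and H2-T23 the non-classical heavy chain Qa-1. Tap1 and Tap2 encode the subunits of the peptide transporter, Tapbp encodes tapasin, Psmb8 encodes a catalytic subunit of the immunoproteasome, and Nlrc5 encodes a transactivator of class I genes. Of these, 8 lie on chromosome 17 (GRCm38, positions from GENCODE M21), from Tapbp at chr17:33915899-33929292 and H2-K1 at chr17:33996017-34000347 to H2-D1 at chr17:35262730-35267499, H2-Q6 at chr17:35424850-35430055 and H2-T23 at chr17:36029773-36032855. Tap1 (chr17:34187553-34197225), Psmb8 (chr17:34197721-34201454) and Tap2 (chr17:34203527-34216321) are neighbours. B2m lies at chr2:122147686-122153083 and Nlrc5 at chr8:94434356-94527272.

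Values are in CPM (counts scaled to a common library total with TMM factors), and library totals ran from 37680501 to 54131421 counts. At that depth 3 counts correspond to 0.0554 to 0.0796 CPM, and each of the 10 genes was above this level in every sample. A transcript was called for region where the adjusted p of the region effect was under 0.05, and a pair of regions was called for such a transcript where the unadjusted p of the pair was under 0.05 and the fold change was over 1.2. Unless an alternative is named, p-values come from edgeR's quasi-likelihood test, and adjusted p-values were taken over all 21236 genes. Ranges over all alternatives also include DESeq2 and a fit to 16966 genes. One library carries a column name that reads PFC while its label reads striatum, and it was used as the striatum sample of mouse 3 after its label. Another library, the midbrain sample of mouse 11, held the highest value of all 35 samples for 8 of the 10 genes. Region calls of the 10 genes that rest on either one are given with and without it. Correlations and values of other genes include both.

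The sorted cells carried microglial transcripts in each sample. The 9 microglial markers summed to 35028 to 39290.5 CPM in the midbrain, 38102 to 44158 in the striatum and 34881 to 41025 in the PFC. Markers of border macrophages (6 of 7 in the table) summed to 2.13 to 123 CPM in the midbrain, 3.73 to 11.4 in the striatum and 3.21 to 11.1 in the PFC, and Cd163 was at 0 in 25 samples. For 8 markers of monocytes and dendritic cells the sums were 3.83 to 14.1, 6.13 to 9.65 and 6.85 to 16.1 CPM, with Clec9a at 0 in 23 samples and Ly6c2 in 18. For lymphocytes 3 of 6 markers were in the table, the T cell markers Cd3e, Cd3g and Cd8a were not among them, and the sums were 1.32 to 7.10, 0.957 to 4.18 and 0.0644 to 1.94 CPM. Markers of other brain cells were more abundant than those of immune cells and differed between regions. Oligodendrocyte markers (5) summed to 166 to 312 CPM in the midbrain, 167 to 582 in the striatum and 100.3 to 331 in the PFC. The sums were 41.1 to 86.02, 50.6 to 199 and 48.3 to 233 CPM for 5 astrocyte markers, 8.93 to 54.95, 20.5 to 78.95 and 14.5 to 38.5 for 6 endothelial markers and 0.955 to 5.22, 3.43 to 10.6 and 8.64 to 20.8 for 6 neuron markers. Against PFC and against striatum alike, 3 neuron and 2 astrocyte markers were called as lower in midbrain samples. Called as higher there against both regions were 1 border macrophage marker, 1 lymphocyte marker and 1 marker of monocytes and dendritic cells. From the last list 1 marker was also called as lower against both. For oligodendrocytes 1 marker was called as higher against PFC and 0 against striatum. Microglial markers were called as lower in midbrain samples for 1 gene against PFC and 3 against striatum. The part of all these cells in the class I differences was not tested beyond the covariate fits given below, and in bulk RNA fewer cells of a type and less RNA per cell cannot be told apart.

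Per length of exon, B2m was by far the most abundant of the 10, at 3159 ± 554 RPKM (CPM per kilobase of exon, SD over 35 samples). The length joins all annotated exons of a gene, 860 bases for B2m and 3381 for Psmb8. It can exceed the length of the transcript in use, so the order between genes is approximate. Next came H2-D1 at 485 ± 180 RPKM, H2-K1 at 150.1 ± 38.7, Tapbp at 130 ± 11.3, Psmb8 at 91.7 ± 12.3 and H2-T23 at 68.0 ± 10.6. Tap2 stood at 28.7 ± 5.64 RPKM, H2-Q6 at 8.38 ± 7.34 and Tap1 at 8.03 ± 1.86. Nlrc5 was lowest, at 0.220 ± 0.187 RPKM and 20 to 388 counts per sample. Of neighbours in this order, H2-Q6 and Tap1 lie within 1 SD of each other. H2-K1 and Tapbp lie within the SD of H2-K1 but not within that of Tapbp.

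Of the 10 class I transcripts, 6 were expressed more highly in midbrain microglia than in either other region, those of the light chain, 3 of the 4 heavy chains, Tap1 and the transactivator. The region effect was called for 7 of the 10 genes (B2m, H2-K1, H2-D1, H2-Q6, H2-T23, Tap1 and Nlrc5), against 8.89% of all genes tested. The midbrain was above the PFC for 6 genes, where 3.24% of all genes were called in that direction, and above the striatum for 6 genes, where 2.98% were. The same 6 genes (all of the 7 but H2-T23) were above both with no call between striatum and PFC, a pattern of 1.73% of all genes. The 10 genes were chosen with earlier results of these data known, so the shares are given for scale and are no test of the set. Tap2, Tapbp and Psmb8 were not called for region. The median log2 fold change of the 10 genes was 0.34 for midbrain against PFC and 0.30 for midbrain against striatum, beside -0.011 and -0.012 over all genes.

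**Figure D1:**
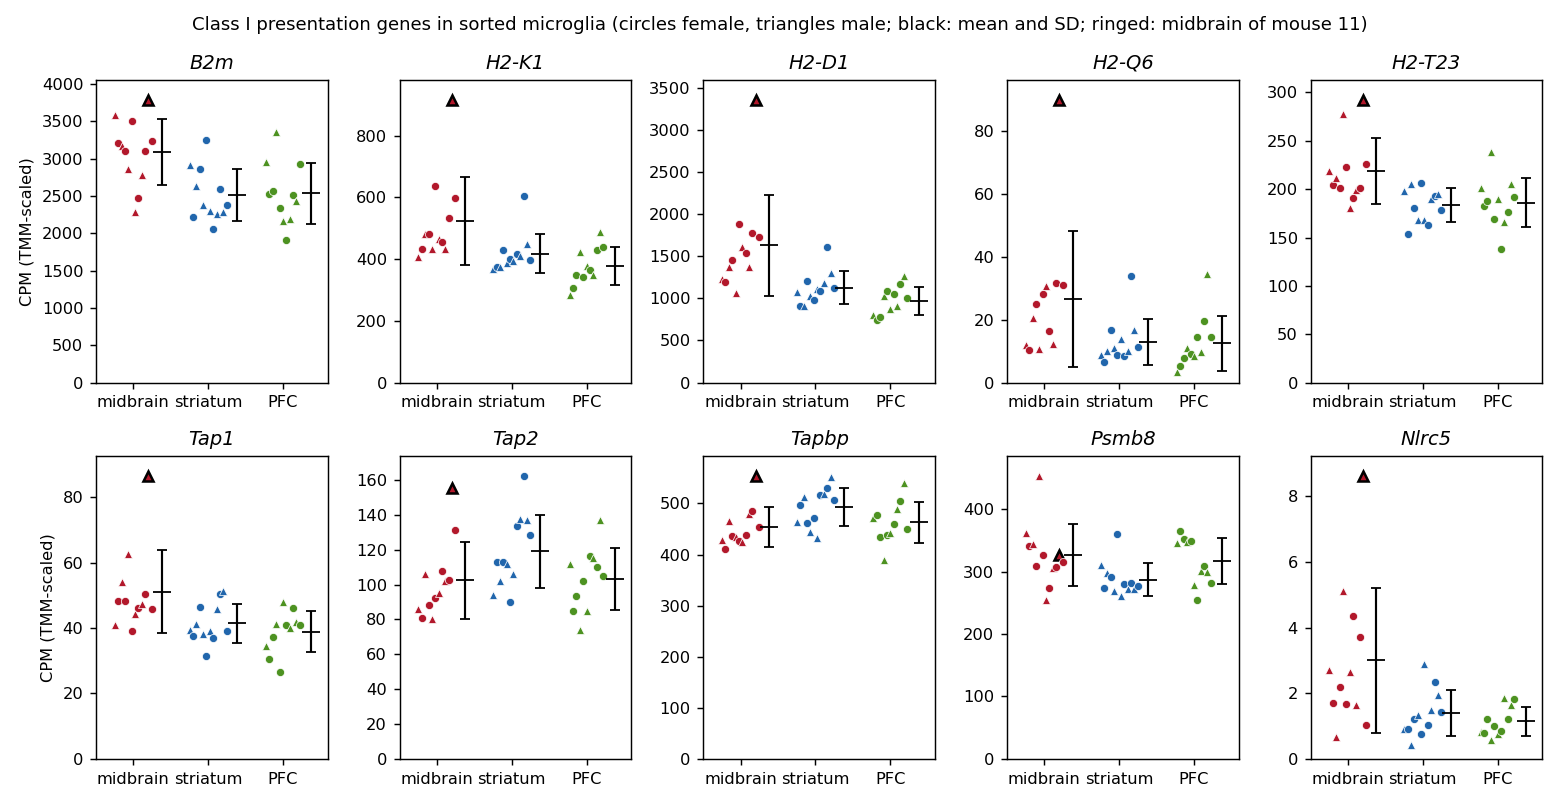
CPM (TMM-scaled, y axis) of each of the 10 class I genes in every sample by region (x axis), with circles for females, triangles for males, black bars for mean and SD, and a ring around the midbrain sample of mouse 11. That sample is the highest of 35 for 8 genes (H2-D1 at 3358 CPM, next highest midbrain sample 1878), and the midbrain means of B2m, the heavy chains, Tap1 and Nlrc5 lie above those of striatum and PFC.

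For the light chain B2m, the lowest, median and highest values were 2282, 3138 and 3790.2 CPM in the midbrain, 2063, 2380.2 and 3251 in striatal samples and 1911, 2512 and 3360.4 in PFC samples. The ranges overlapped, with 3 of the 12 midbrain samples above the highest PFC sample and 3 above the highest striatum sample. Means were 3091 ± 440.3 CPM (SD, n = 12), 2511 ± 349 (n = 12) and 2534 ± 412 (n = 11). B2m was 1.22-fold higher in the midbrain than in the PFC (log2 fold change 0.29, SE 0.0860, adjusted p = 0.0348) and 1.23-fold higher than in the striatum (0.30, SE 0.0840, adjusted p = 0.0221). Within mice the midbrain was higher than the PFC in 10 of 11 and higher than the striatum in 11 of 12. Both folds sit just above the limit of 1.2, and the call against PFC was lost when mouse 2, 6 or 11 was left out, the one against striatum when mouse 2 or 11 was. Without the midbrain sample of mouse 11 alone the log2 fold changes were 0.26 (adjusted p = 0.0711, not called) and 0.27 (adjusted p = 0.0453, called), and over all alternatives the adjusted p ran from 0.00422 to 0.296 and from 0.00176 to 0.231.

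Among the heavy chains, H2-D1 differed most clearly. The lowest, median and highest values of H2-D1 were 1062, 1495 and 3358 CPM in the midbrain, 903, 1098 and 1611 in striatal samples and 740.5, 1004 and 1262 in PFC samples. In the midbrain 9 of 12 samples were above the highest PFC sample, and 4 were above the highest striatum sample. Means were 1629.9 ± 597 CPM (SD, n = 12), 1127 ± 192 (n = 12) and 973 ± 167 (n = 11). H2-D1 was 1.68-fold higher in the midbrain than in the PFC (log2 fold change 0.74, SE 0.134, adjusted p = 2.18e-04) and 1.45-fold higher than in the striatum (0.53, SE 0.130, adjusted p = 0.00798). The direction held in 11 of 11 and 12 of 12 mice, and both calls were kept in all 24 alternative fits. Without the midbrain sample of mouse 11 the midbrain mean was 1473 ± 258 CPM (SD, n = 11), and the log2 fold changes were 0.59 (adjusted p = 7.29e-05) and 0.38 (adjusted p = 0.0121). Over all alternatives the adjusted p ran from 1.35e-06 to 0.0141 against PFC and from 2.99e-04 to 0.117 against striatum.

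H2-K1, the other classical heavy chain, had lowest, median and highest values of 407, 474 and 917 CPM in the midbrain, 369, 398 and 605 in striatal samples and 283, 364 and 489 in PFC samples. Every midbrain sample was above the median of the PFC and the median of the striatum, although the ranges overlapped. The means of 523 ± 142 CPM (SD, n = 12), 418 ± 63.5 (n = 12) and 377 ± 61.6 (n = 11) gave a log2 fold change of 0.47 against PFC (1.39-fold, SE 0.109, adjusted p = 0.00381). Against striatum the log2 fold change was 0.33 (1.25-fold, SE 0.106), called by the unadjusted p but with an adjusted p of 0.0514. Within mice the midbrain was higher in 11 of 11 and 11 of 12. Without the midbrain sample of mouse 11 the call against PFC was kept (0.37, adjusted p = 0.00563) and the one against striatum was lost (0.22, adjusted p = 0.123). Over all alternatives the adjusted p ran from 8.66e-05 to 0.118 and from 0.00669 to 0.225.

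H2-Q6 had the widest spread of the heavy chains. Its lowest, median and highest values were 10.4, 22.8 and 89.8 CPM in the midbrain, 6.59, 10.5 and 33.7 in striatal samples and 3.24, 9.71 and 34.6 in PFC samples. A single midbrain sample, that of mouse 11, was above the highest sample of either other region. Means were 26.5 ± 21.6 CPM (SD, n = 12), 12.97 ± 7.27 (n = 12) and 12.5 ± 8.64 (n = 11), with log2 fold changes of 1.08 against PFC (SE 0.356, adjusted p = 0.0630) and 1.03 against striatum (SE 0.347, adjusted p = 0.0653). Both were called through the region effect at an adjusted p of 0.0463. The call did not hold without the midbrain sample of mouse 11, where the mean was 20.8 ± 8.75 CPM (n = 11) and the log2 fold changes were 0.72 (adjusted p = 0.218) and 0.67 (adjusted p = 0.207). It was also lost without the striatum sample of mouse 3 (1.08 and 0.99) and with any 1 mouse left out other than mouse 10 or 11, and over all alternatives the adjusted p ran from 5.80e-04 to 0.314 and from 0.00306 to 0.271.

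H2-T23 was called for region (adjusted p = 0.0215) but for no pair, since its folds of 1.17 against PFC (log2 fold change 0.23, adjusted p = 0.0448) and 1.19 against striatum (0.25, adjusted p = 0.0199) were under 1.2. Its lowest, median and highest values were 180.5, 208 and 293 CPM in the midbrain, 153, 185 and 206 in striatal samples and 138, 188 and 239 in PFC samples. The ranges overlapped, with 6 of 12 midbrain samples above the highest striatum sample, and within mice the midbrain value was above the striatum value in 12 of 12 and above the PFC value in 10 of 11. The fold against striatum passed 1.2, and was called, when mouse 1, 3, 6, 9 or 10 was left out. Without the midbrain sample of mouse 11 the region call of H2-T23 was lost (adjusted p = 0.0566), with log2 fold changes of 0.19 and 0.22.

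Heavy chain genes resemble each other, and reads that match several genes could have been split between them, since the counting of such reads is not given in the sources used here. Of all stretches of 50 bases (the length of 1 read) in the annotated transcripts, 35% of those of H2-Q6 also occur in transcripts of other genes, most often H2-Q7 at 13.9%. The share was 14.5% for H2-T23, 12.8% for H2-D1 and 9.63% for H2-K1, with 5.44% of the stretches of H2-D1 and 4.08% of those of H2-K1 shared between these 2. B2m shared none. Tapbp shared 20.3% with the antisense gene Gm19412, Psmb8 11.6% with the antisense gene Gm20496 and Tap2 9.22% with Gm15821 on the other strand, and without strand such pairs cannot be told apart. Values of H2-Q6 in particular are uncertain for this reason.

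H2-K1, H2-D1 and H2-Q6 varied together, and their promoters are shown because they share a stretch of sequence. RefSeq promoter entries (GRCm38.p6) were at hand for 8 of the 10 genes, all but Tap2 and Nlrc5, and the 200 bases before the RefSeq start furthest upstream were searched on both strands. In the GENCODE annotation the windows of H2-D1, Tap1, Tapbp and Psmb8 lie wholly in exons of the same or a neighbouring gene and that of H2-T23 for 154 bases, so these are not purely upstream sequence. The windows of H2-K1 and H2-Q6 hold 0 exon bases and that of B2m 1, which is left out of the 199 bases printed. The motifs were the kappaB site GGGGATTCC, the class I interferon-stimulated response element (ISRE) TTTCACTTC, the general ISRE GAAANNGAA, the cyclic AMP response element core TGACG and the inverted CCAAT box ATTGG, and no matches overlapped. In 32851 promoters of the same length the kappaB letters occurred in 0.155%, the class I ISRE letters in 0.307%, the general ISRE in 5.57%, TGACG in 15.7% and ATTGG in 29.3%. Both rare motifs were found in H2-K1, H2-D1 and H2-Q6 of the 8 searched. The stretch from the kappaB site to the class I ISRE, with both in capitals, reads as follows on the gene's strand for H2-K1 (chr17:34000429-34000458, minus strand), H2-D1 (chr17:35262923-35262952, plus strand), H2-Q6 (chr17:35424677-35424706, plus strand) and its neighbour H2-Q7 (chr17:35439022-35439050, plus strand).
H2-K1: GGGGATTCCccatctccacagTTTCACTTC
H2-D1: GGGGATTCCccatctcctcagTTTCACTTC
H2-Q6: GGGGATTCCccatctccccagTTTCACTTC
H2-Q7: GGGGATTCCcatctccccagTTTCACTTC
Over 80 bases from the kappaB site, H2-D1 and H2-K1 were identical at 75 (93.8%), H2-D1 and H2-Q6 at 70 (87.5%) and H2-K1 and H2-Q6 at 69 (86.2%).

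The window before B2m (chr2:122147487-122147685, plus strand) is set beside those of H2-K1 (chr17:34000348-34000547, minus strand) and H2-Q6 (chr17:35424650-35424849, plus strand) to show where the motifs differ, with every match in capitals.
B2m: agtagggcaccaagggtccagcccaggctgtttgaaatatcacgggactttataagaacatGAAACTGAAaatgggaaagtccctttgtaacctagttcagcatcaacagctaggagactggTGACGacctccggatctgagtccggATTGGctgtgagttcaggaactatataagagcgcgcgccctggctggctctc
H2-K1: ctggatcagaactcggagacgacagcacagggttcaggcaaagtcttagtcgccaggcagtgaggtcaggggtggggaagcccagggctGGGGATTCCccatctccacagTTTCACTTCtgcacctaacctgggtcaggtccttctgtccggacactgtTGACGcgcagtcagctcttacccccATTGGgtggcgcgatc
H2-Q6: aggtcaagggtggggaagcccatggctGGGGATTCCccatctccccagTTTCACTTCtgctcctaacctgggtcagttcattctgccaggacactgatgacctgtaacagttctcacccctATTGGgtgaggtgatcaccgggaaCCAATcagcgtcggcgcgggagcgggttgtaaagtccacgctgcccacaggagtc
B2m held the general ISRE, TGACG and ATTGG and neither rare motif. H2-T23 held the general ISRE and the CCAAT box, Tap1 held TGACG and Tapbp held ATTGG. A match describes the letters only, and factor binding was not measured in these samples.

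The peptide transporter was split between its subunits. Tap1 had lowest, median and highest values of 38.98, 47.8 and 86.5 CPM in the midbrain, 31.4, 39.4 and 51.4 in striatal samples and 26.7, 40.8 and 47.9 in PFC samples, with 6 of 12 midbrain samples above the highest PFC sample. Tap1 was 1.31-fold higher in the midbrain (51.1 ± 12.7 CPM, SD, n = 12) than in the PFC (38.9 ± 6.29, n = 11; log2 fold change 0.38, SE 0.102, adjusted p = 0.0143) and 1.23-fold higher than in the striatum (41.5 ± 5.89, n = 12; 0.30, adjusted p = 0.0589). It was higher in the midbrain in 10 of 11 and 11 of 12 mice. Without the midbrain sample of mouse 11 its region effect had an adjusted p of 0.0511 and both calls were lost (0.30 and 0.21), and they were lost without mouse 2 as well. Over all alternatives the adjusted p of Tap1 ran from 0.00133 to 0.239 against PFC and from 0.00935 to 0.234 against striatum.

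Tap2 did not follow Tap1. Its lowest, median and highest values were 80.3, 98.7 and 155 CPM in the midbrain, 89.8, 113 and 162 in striatal samples and 74.2, 105 and 137 in PFC samples, and the ranges overlapped almost wholly. Means were 102 ± 21.9 CPM (SD, n = 12), 119 ± 21.1 (n = 12) and 103 ± 17.9 (n = 11), with log2 fold changes of -0.011 against PFC and -0.22 against striatum (adjusted p = 0.233). The ratio of Tap1 to Tap2 per length of exon was 0.350 ± 0.0753 in the midbrain, 0.243 ± 0.0309 in the striatum and 0.267 ± 0.0665 in the PFC. Its level depends on the exon lengths used, so only the regions are compared.

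Tapbp and Psmb8 were not called either. Tapbp had values of 411 to 554 CPM in the midbrain (453 ± 39.1, SD, n = 12), 432 to 553 in the striatum (492 ± 37.03, n = 12) and 390.2 to 539.9 in the PFC (463 ± 39.9, n = 11). Its log2 fold changes were -0.033 and -0.12 (adjusted p = 0.158 against striatum), and its midbrain value was below the striatum value in 11 of 12 mice. Psmb8 had values of 255 to 453 CPM in the midbrain (327 ± 49.5), 261 to 360.2 in the striatum (287 ± 26.7) and 254 to 366 in the PFC (317 ± 37.1), with log2 fold changes of 0.043 and 0.19 (adjusted p = 0.107 against striatum). Psmb8 per length stood at 1.31 ± 0.160 times its constitutive counterpart Psmb5 in the midbrain, 1.19 ± 0.120 in the striatum and 1.25 ± 0.142 in the PFC, so the 3 means lie within 1 SD of each other.

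Nlrc5 had the largest log2 fold change of the 10 and the fewest counts. Its lowest, median and highest values were 0.662, 2.41 and 8.62 CPM in the midbrain, 0.412, 1.28 and 2.88 in striatal samples and 0.586, 1.002 and 1.84 in PFC samples. In the midbrain 7 of 12 samples were above the highest PFC sample and 4 above the highest striatum sample, while the lowest midbrain value lay near the bottom of both other ranges. Nlrc5 was 2.57-fold higher in the midbrain (3.004 ± 2.21 CPM, SD, n = 12) than in the PFC (1.14 ± 0.450, n = 11; log2 fold change 1.36, SE 0.327, adjusted p = 0.00596) and 2.14-fold higher than in the striatum (1.39 ± 0.701, n = 12; 1.10, SE 0.313, adjusted p = 0.0252). The midbrain was higher in 9 of 11 and 10 of 12 mice. Without the midbrain sample of mouse 11 the log2 fold changes were 1.13 (adjusted p = 0.0175) and 0.85 (adjusted p = 0.0745), both still called. With each mouse left out in turn the calls held in 12 of 12 fits, and over all alternatives the adjusted p ran from 6.59e-04 to 0.122 and from 0.00758 to 0.162.

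**Figure D2:**
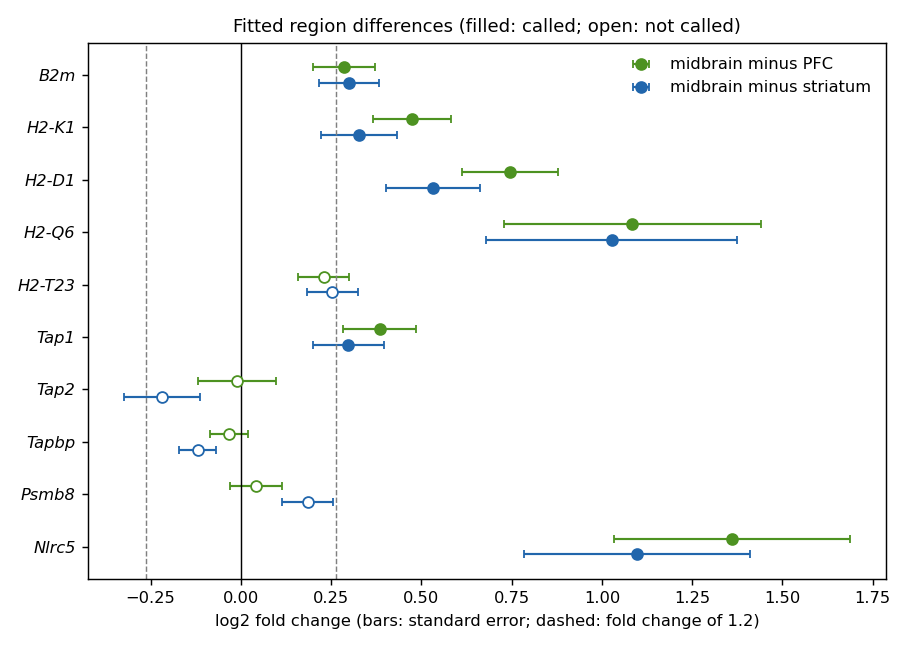
Fitted log2 fold changes (x axis, bars are standard errors) of the 10 genes (y axis) for midbrain minus PFC (green) and midbrain minus striatum (blue), filled where called, with dashed lines at a fold change of 1.2. For 6 genes both pairs have filled points to the right of the dashed line, from B2m at 0.29 and 0.30 to Nlrc5 at 1.36 and 1.10, while H2-T23 falls just short of it and Tap2, Tapbp and Psmb8 have open points.

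The number of genes called rested in part on the midbrain sample of mouse 11. Without it the region effect was called for 4 genes (B2m, H2-K1, H2-D1 and Nlrc5), the midbrain was above the PFC for 3 (H2-K1, H2-D1 and Nlrc5) and above the striatum for 3 (B2m, H2-D1 and Nlrc5). This fit was added after the data were seen. The sample held 1312 CPM of class II transcripts, where the midbrain median was 250.3. Its border macrophage markers summed to 2.999 CPM, its lymphocyte markers to 1.44 and its microglial markers to 38270.2, inside the range of the other samples. Its sums for the other marker lists are not given here, and the part of other cells in its high values was not tested. The midbrain sample of mouse 6 stood apart in another way, with 123 CPM of border macrophage markers and 3659 CPM of class II transcripts, and without it 6 genes were called for region and 5 for each pair, with H2-Q6 lost. Without the striatum sample of mouse 3 the same 6 and 5 genes were called. A covariate for immune cell markers left the counts at 7, 6 and 6, and one for markers of neurons, astrocytes, oligodendrocytes and endothelial cells left 5 for each, with B2m and H2-T23 lost.

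The regions of a mouse can be compared directly, since samples of the same mouse deviated together. With the mouse as a block in the fit, the region effect was called for 10 of 10 genes, where Tap2, Tapbp and Psmb8 were added, and for 14% of all genes. The block kept the same 6 genes for midbrain against PFC and for midbrain against striatum. Against striatum, Tap2 then had a log2 fold change of -0.23 (adjusted p = 0.0283), Tapbp of -0.12 (adjusted p = 0.00893) and Psmb8 of 0.18 (adjusted p = 0.0276), each with a fold under 1.2. H2-Q6 had an adjusted p of 5.80e-04 against PFC and 0.00306 against striatum in this fit.

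**Figure D3:**
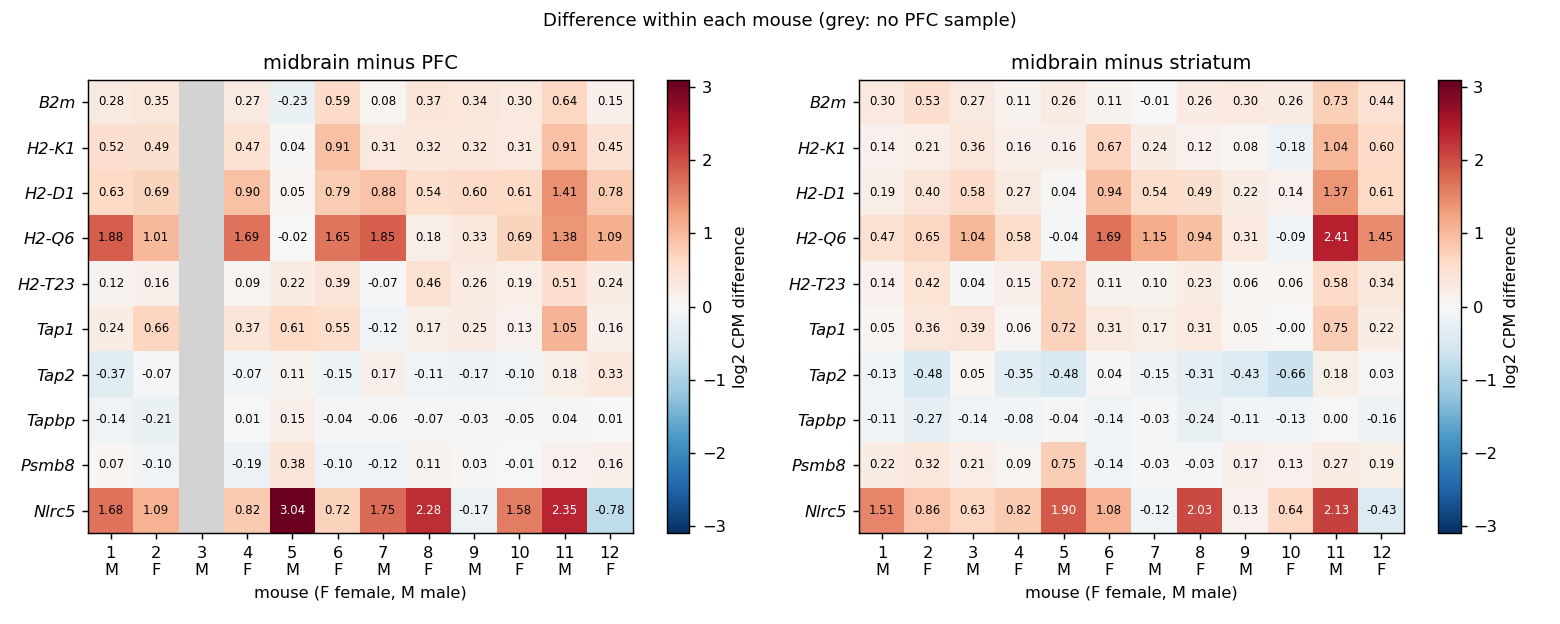
Difference in log2 CPM within each mouse (columns, with sex) for the 10 genes (rows), midbrain minus PFC on the left and midbrain minus striatum on the right, in red where the midbrain was higher and grey where mouse 3 has no PFC sample. H2-D1 is positive in all 11 and all 12 mice, Nlrc5 is negative in mice 9 and 12 on the left and 7 and 12 on the right, and Tapbp is negative in 11 of 12 mice on the right.

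Striatum against PFC was called for 0 of the 10 genes by the same test, where 3.14% of all genes were called. Log2 fold changes of striatum against PFC ran from -0.14 (Psmb8) to 0.26 (Nlrc5), with adjusted p-values of 0.441 to 0.977. At an unadjusted p under 0.05 the count was 0, and DESeq2 called 0. With the mouse as a block 5 of the 10 had an unadjusted p under 0.05, beside 16.3% of all genes, and 0 had an adjusted p under 0.05 or, of the 5, a fold over 1.2. Of these, H2-D1 (0.24, adjusted p = 0.134, higher in the striatum in 10 of 11 mice), Tap2 (0.22, adjusted p = 0.0947, 8 of 11), Tapbp (0.083, adjusted p = 0.154, 9 of 11) and H2-K1 (0.17, adjusted p = 0.253, 8 of 11) had higher values in the striatum. Psmb8 had lower ones (-0.14, adjusted p = 0.168) in 9 of 11 mice.

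Sex was called for 0 of the 10 genes in edgeR's quasi-likelihood test, where 4.13% of all genes were called in either direction. This fit counts the 2 or 3 samples of a mouse as replicates, although sex differs between mice only and samples of a mouse deviated together, so its p-values are too small. At an unadjusted p under 0.05 the count was 1, H2-T23, with a log2 fold change of 0.14 for male over female (p = 0.0250, adjusted p = 0.510) that is under the fold limit. DESeq2 called 0. With the counts of midbrain and striatum summed per mouse, so that each of 6 males and 6 females counted once, 0 genes were called (3.35% of all genes) and 0 had an unadjusted p under 0.05, with H2-T23 at 0.11 (adjusted p = 0.9998). Within regions, where each mouse gives 1 sample, the counts were also 0, in edgeR at the unadjusted p and in DESeq2, beside 4.84% of all genes in the midbrain, 2.28% in the striatum and 5.29% in the PFC. The midbrain of males had 1667 ± 848 CPM of H2-D1 (SD, n = 6) and that of females 1593 ± 250.3 (n = 6), so the male spread was wide through mouse 11. No region by sex interaction was found for any of the 10 genes (lowest unadjusted p = 0.357), and over all genes 0% were called in edgeR, with 632 at an unadjusted p under 0.05 and 1 gene in DESeq2.

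The 10 genes fell into sets that varied together from sample to sample. With region and sex means subtracted, Pearson's r over the 35 samples was 0.90 for H2-K1 with H2-D1, 0.90 for H2-K1 with H2-Q6 and 0.89 for H2-D1 with H2-Q6. Tap2 went with Tapbp (0.77) and with H2-D1 (0.71), and Tap1 with H2-K1 (0.65). B2m, H2-T23 and Psmb8 formed another set, at 0.75 for B2m with H2-T23, 0.66 for H2-T23 with Psmb8 and 0.61 for B2m with Psmb8. Between this set and the other genes but Nlrc5, r over 18 pairs ran from -0.45 (Psmb8 with Tap2) to 0.45 (H2-T23 with H2-K1), with a median of -0.00587. Psmb8 had the lowest values and H2-T23 the highest, so H2-T23 is not set apart from H2-K1 or Tap1 (0.35). The samples share mice, and H2 genes may share reads, so these values describe the 35 samples and carry no test. They include the midbrain sample of mouse 11, where the mean standardised value of the 10 genes was 2.32 (next highest sample 1.12), and r without it is not given. With the log2 total count, r of the single genes ran from -0.32 (Nlrc5) to 0.12.

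**Figure D4:**
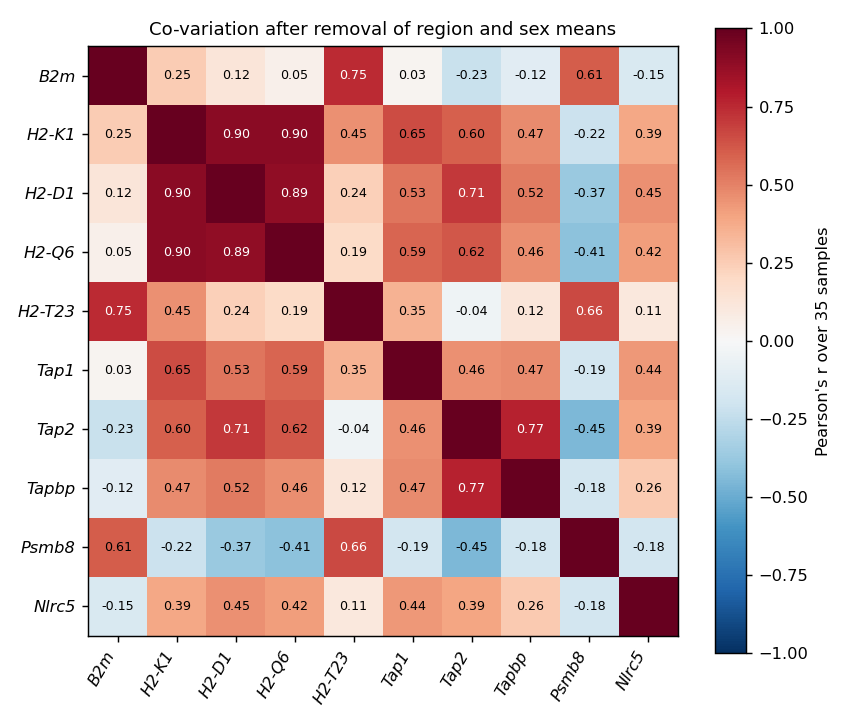
Pearson's r over 35 samples (colour and number) between each pair of the 10 genes with region and sex means subtracted. A block of H2-K1, H2-D1 and H2-Q6 at 0.89 to 0.90 extends to Tap1 and Tap2, and B2m, H2-T23 and Psmb8 form another at 0.61 to 0.75.

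Among genes outside the 10 with a mean of at least 8 CPM, the 5 whose variation was most like the mean of the 10 included H2-Q7 (r = 0.74, n = 35), Gbp2 (0.74), Grn (0.74) and Scpep1os (0.70). Gbp2 encodes an interferon-induced GTPase and Grn the lysosomal protein progranulin. Mean CPM in midbrain, striatum and PFC was 14.8, 8.24 and 7.999 for Gbp2 and 2384, 2583 and 2483 for Grn. Across lists, the mean of the 10 went with the other heavy chains (r = 0.81) and less with class II genes (0.34). Single genes of the heavy chain list ran from -0.39 (Hfe) to 0.74 (H2-Q7), with H2-Q4 at 0.69, H2-M3 at 0.53 and Mr1 at 0.10. Of the stretches of H2-Q6 compared above, 13.9% also occur in H2-Q7 and 12.3% in H2-Q4. H2 genes may thus share reads, and the part of shared reads in the 0.81 was not tested. With the receptor Pirb r was 0.39, with other peptide loading factors 0.37, with other proteasome subunits 0.061 and with transcription regulators -0.075. Among marker lists r was 0.37 for oligodendrocytes, 0.27 for endothelial cells, 0.23 for astrocytes, 0.019 for lymphocytes, 0.014 for monocytes and dendritic cells, -0.14 for microglia, -0.19 for border macrophages and -0.25 for neurons. These values describe the samples, and the part of other brain cells in the shared variation was not tested.

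Among other genes of the class I pathway, 6 of the 44 in the table (13.6%) were called for region, beside 8.89% of all genes. Of 17 other class I and class I-like heavy chains listed, 15 were in the table and 2 were called for region. H2-M3, a heavy chain that binds formylated peptides, was higher in the midbrain (80.5 ± 15.5 CPM, SD, n = 12) than in the PFC (64.6 ± 10.4, n = 11; log2 fold change 0.31, adjusted p = 0.0159). Against striatum (67.3 ± 5.03 CPM, n = 12) its log2 fold change was 0.26, a fold of 1.19 that was not called. The highest midbrain value of H2-M3 was 126 CPM in mouse 11, beside a median of 75.4. Hfe, a class I-like protein that regulates iron uptake and presents no peptide, was lower in the midbrain (216 ± 27.1 CPM, SD, n = 12) than in the PFC (264 ± 19.9, n = 11; -0.29, adjusted p = 5.00e-04) and the striatum (264 ± 12.5, n = 12; -0.29, adjusted p = 6.92e-04), in 11 of 11 and 11 of 12 mice. H2-Q7, the neighbour of H2-Q6, had 13.8 ± 9.22, 7.16 ± 3.74 and 7.74 ± 4.08 CPM in midbrain, striatum and PFC and was not called (region effect, adjusted p = 0.0505). The median log2 fold change of these 15 genes was 0.31 for midbrain against PFC and 0.26 for midbrain against striatum. Both are the values of H2-M3, and several of the 15 had a mean under 8 CPM with positive folds that were not called. As a sum the list was not higher in the midbrain, at 554 ± 42.1 CPM (SD, n = 12). The striatum had 573 ± 20.9 CPM (n = 12) and the PFC 585 ± 38.7 (n = 11). Most of this sum is Hfe and Fcgrt, so it does not show how the rest of the list behaved. Fcgrt had 167 ± 10.3 CPM in the midbrain, 162 ± 12.5 in the striatum and 175 ± 13.2 in the PFC and was not called.

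Of 8 other proteasome subunits and 7 other peptide loading factors, 0 were called for region in edgeR. At an unadjusted p under 0.05, 1 and 2 of them differed between midbrain and PFC and 2 and 3 between midbrain and striatum, while DESeq2 called 1 proteasome gene (Psme3) and 0 loading factors. The median log2 fold changes of the 2 lists were 2.0e-04 and 0.066 for midbrain against PFC, beside -0.011 over all genes, and 0.11 and 0.0080 for midbrain against striatum, beside -0.012. Psmb9, an immunoproteasome subunit, had 75.98 ± 15.9 CPM in the midbrain, 76.02 ± 9.94 in the striatum and 79.0 ± 14.9 in the PFC, and the constitutive subunit Psmb5 had 67.5 ± 15.1, 64.9 ± 10.3 and 68.5 ± 13.8. Of 13 transcription regulators of class I genes, 3 were called for region, among them the interferon regulatory factor Irf8 and the NF-kappaB subunit Nfkb1. Irf8 stood at 1073, 955 and 967 CPM with folds under 1.2, and Nfkb1 at 202, 191 and 222 CPM with folds under 1.2. Irf1, an interferon-induced activator of class I promoters, had 309 ± 76.9, 253 ± 72.4 and 360.2 ± 97.9 CPM and was not called, and Rfx5, a partner of Nlrc5 at these promoters, had 18.9 ± 3.47, 19.2 ± 2.95 and 19.999 ± 4.37 CPM.

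Pirb, an inhibitory receptor of myeloid cells that binds class I molecules, was higher in the midbrain as well (20.05 ± 4.79 CPM, SD, n = 12) than in the PFC (12.4 ± 2.78, n = 11; log2 fold change 0.70, adjusted p = 3.29e-04) and the striatum (14.5 ± 1.89, n = 12; 0.47, adjusted p = 0.0158), in 9 of 11 and 10 of 12 mice. Of the 5 class II genes, 4 were above both other regions in the midbrain, with H2-Ab1 at a log2 fold change of 3.06 against PFC and Cd74 at 2.83. The sizes rest in part on the midbrain sample of mouse 6, which held 1187 CPM of H2-Ab1 where the other 11 had 110.4 ± 99.4 (SD), and without it they were 2.09 (adjusted p = 3.00e-05) and 2.00 (adjusted p = 1.68e-04), with the same 4 genes called. Against striatum these calls rest on the unadjusted p for H2-Aa (adjusted p = 0.124), H2-Eb1 (0.0980) and Cd74 (0.136), while H2-Ab1 had an adjusted p of 0.00939. The midbrain sample of mouse 11 stayed in this fit. The sums of the 5 class II genes were 129.6 to 3659 CPM in the midbrain, 72.6 to 329 in the striatum and 31.0 to 112 in the PFC.

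**Figure D5:**
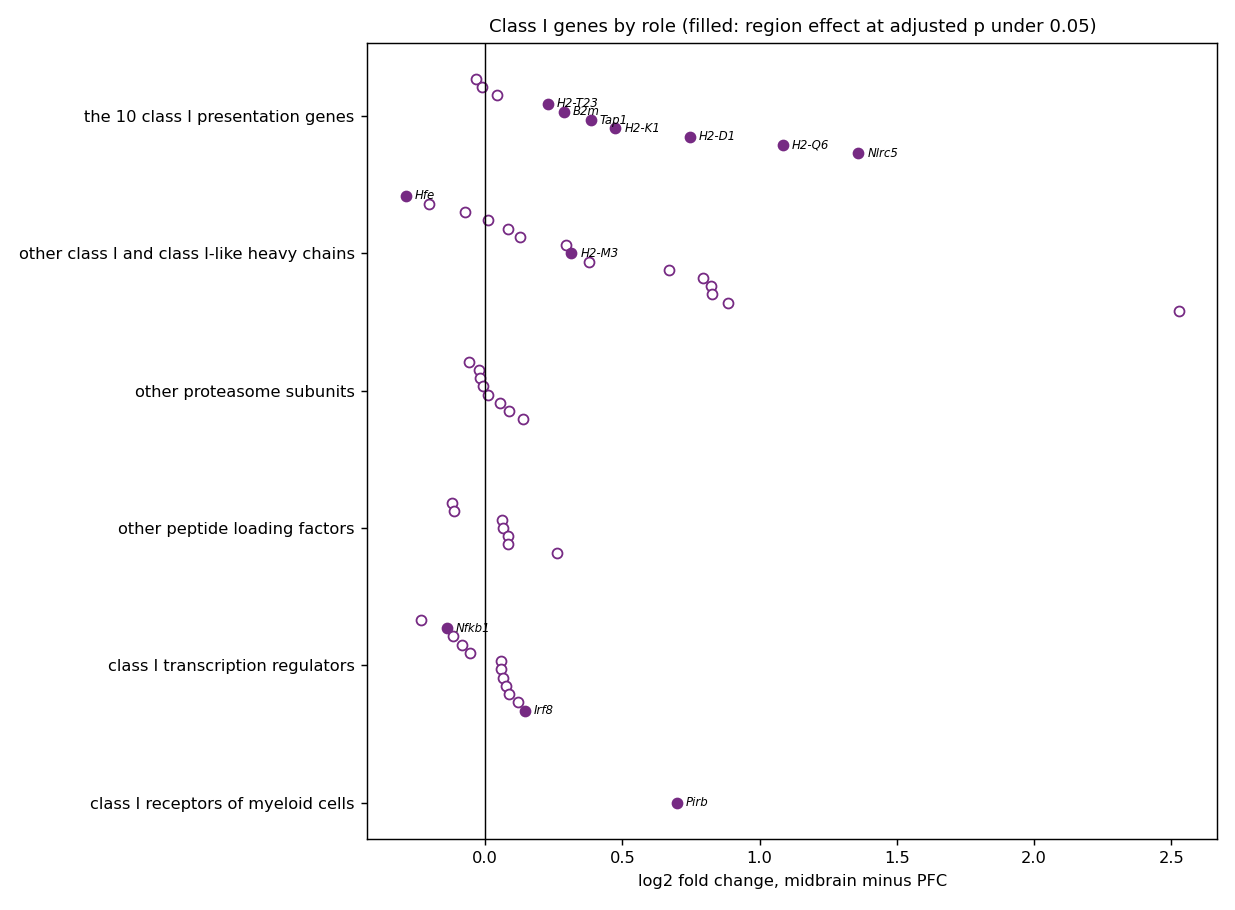
Fitted log2 fold change of midbrain minus PFC (x axis) of each class I gene by role (rows), filled and named where the region effect was called, with 1 regulator not shown. The 7 named genes of the top row run from 0.23 (H2-T23) to 1.36 (Nlrc5), while the proteasome subunits and loading factors have open points around 0 and the open point at 2.53 is H2-M2, at a mean of 0.460 CPM.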

How the data were processed

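Paired reads of 50 bases from Smart-Seq cDNA of sorted tdTomato-positive cells were made into raw counts per Ensembl gene by the authors, who trimmed adapters with Trimmomatic, aligned to GRCm38 with HISAT2 and removed genes under 1 CPM in every sex and region subgroup before they deposited the counts. The counting tool, the use of strand and the handling of reads that match several genes are not given in the sources used here. Symbols, positions and exon lengths came from GENCODE M21 (133 genes have no symbol there), and promoter sequences from RefSeq.

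All 21236 genes and 35 samples entered the fits in edgeR 4.0.16 under R 4.3.3 (robust quasi-likelihood test after TMM scaling, additive in region and sex, with a model of 1 mean per region and sex for sex within regions and the interaction). The limits are those of the study's methods, which name no adjustment for the pairs of regions or for sex. P-values were adjusted by Benjamini-Hochberg. CPM use TMM factors, log2 CPM a prior count of 2, and RPKM the joined length of all annotated exons of a gene. Correlations used log2 CPM with region and sex means subtracted. The steps were tested on simulated data. Figures were drawn with Python 3.11.15 and matplotlib 3.10.9.

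The number in a sample's title was taken as the mouse. Samples of the same mouse deviated together from their group means in 8623 genes (mean r 0.347 over 34 pairs, 32 of them over 0.1). Over 170 pairs of different mice of 1 sex in different regions mean r was -0.0675, with 48 over 0.1. The highest r was 0.623 and 0.616, so the 2 kinds of pairs overlapped. The mouse served as the replicate block. No 2 libraries were alike beyond r = 0.990. PCR copies were not removed by molecular identifiers, so counts carry more than counting error.

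Alternatives were DESeq2 1.42.0, DESeq2 size factors, edgeR's filterByExpr (16966 genes kept), adjusted p-values for pairs and sex, no fold limit, the replicate block, marker covariates, mice 1 to 6 and 7 to 12 alone, a fit that left out the striatum sample of mouse 3 and each mouse left out. Fits without the midbrain samples of mouse 6, mouse 11 or both, and a fit of sex to counts summed per mouse, were added after the data were seen.

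The 10 genes, the pathway and marker lists and the tests were chosen with earlier results of these data known. Named besides the 10 are pathway genes called for region, counterparts of the 10 (Psmb5, Psmb9, H2-Q7, Irf1 and Rfx5) and the 5 genes of at least 8 CPM most like their mean. Some genes that this rule names, and 1 motif searched, are not reported here. H2-M2, Psme3, the class II genes, the marker genes at 0 and the genes that share sequence with the 10 were named after their values were seen.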

Additional observations from a re-analysis of the deposited data

Results flagged for a closer look

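In each of the 60 groups of 1 gene, region and sex, the highest and the lowest sample were compared with the nearest of the others. In 6 groups that sample stood far apart on the log2 scale, and chance alone would set apart about 1 in 20 groups. Of these, 2 are the midbrain sample of mouse 11 among males, with H2-D1 at 3358 CPM (next 1609) and H2-K1 at 917 CPM (next 482). H2-K1 was also far above the other females in the striatum sample of mouse 10, at 605 CPM (next 431). Mouse 6 gave 2 of the groups among females, with Psmb8 at 360.2 CPM in the striatum (next 291) and Tap1 at 38.98 CPM, the lowest in the midbrain (next 45.8). The midbrain sample of mouse 8 had the lowest B2m among females, at 2466 CPM (next 3102).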

How the results depend on the processing

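DESeq2, DESeq2 size factors, filterByExpr and the immune marker covariate gave 7, 6 and 6 genes for the region effect, midbrain against PFC and midbrain against striatum. Mice 1 to 6 alone gave 2, 2 and 2 (H2-K1 and H2-D1) and mice 7 to 12 alone 1, 1 and 1 (H2-D1), with fewer samples. Without the midbrain sample of mouse 11 the counts were 4, 3 and 3, and without those of mice 6 and 11 they were 4, 4 and 2. Adjusted p-values of the pair left 5 and 3. The replicate block, which pairs the regions of a mouse, gave 10, 6 and 6, and changed no other call of a gene. With each mouse left out in turn the ranges were 3 to 7, 3 to 6 and 3 to 7, lowest without mouse 2 (H2-K1, H2-D1 and Nlrc5). For sex they were 0 to 1 overall (H2-Q6 without mouse 11) and 0 to 1 in the midbrain (Tap1 without mouse 1 or 7). Tap1 was also the 1 gene called for sex in the midbrain with the brain cell covariate, and B2m the 1 gene in the PFC of mice 1 to 6. Of 830 results for single genes under the alternatives, 723 kept direction and side of the threshold, 51 fell below it, 5 passed it and 51 turned direction; of 130 under those added after the data were seen the numbers were 107, 14, 0 and 9. The causes were not tested.

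The turned values were all small differences that no fit in question called, except H2-Q6 for sex without mouse 11. For male over female, B2m turned to -0.045 (mice 7 to 12), -0.00359 (without the striatum sample of mouse 3), -0.017 (without the midbrain sample of mouse 11), -0.00925 (without those of mice 6 and 11) and -0.032 (counts summed per mouse), with -0.0538 to 0.0529 over left-out mice. H2-K1 turned to 0.0042 (mice 7 to 12; -0.16 to 0.021 over left-out mice). H2-D1 turned to -0.096 (mice 1 to 6), -0.012 (immune covariate), -0.11 (without the midbrain sample of mouse 11) and -0.091 (without both; -0.16 to 0.070). H2-Q6 turned to -0.24, -0.19 and -0.17 in mice 1 to 6 and without the midbrain samples of mouse 11 or of both (-0.47 to 0.32). Tap2 turned to 0.011 (mice 1 to 6), 0.00542 (without the striatum sample of mouse 3) and 0.0036 (brain cell covariate; -0.11 to 0.045), Tapbp to -0.00748 (without both; -0.030 to 0.048) and Psmb8 to -0.0030 (mice 7 to 12; -0.032 to 0.059). For midbrain against PFC, Tap2 turned to 0.060 (mice 7 to 12), 0.052 (immune covariate), 0.013 (brain cell covariate) and 0.00367 (without the midbrain sample of mouse 6; -0.041 to 0.030). For striatum against PFC, H2-Q6 turned to -0.097 (mice 7 to 12) and -0.16 (brain cell covariate; -0.086 to 0.33), H2-T23 to 0.032 (mice 7 to 12; -0.057 to 0.025), and B2m lay between -0.0665 and 0.0414 over left-out mice.

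Depth limits Nlrc5 most, at 20 to 388 counts per sample.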
